A study of Mus musculus with 12 samples.

Results

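Embryonic stem cells (ESC) and primordial germ cells (PGC) of embryonic day 12.5 both carry little DNA methylation, and the question here is whether the low methylation lies at the same places. The comparison took 4 of the 12 libraries of the series, 2 of ESC and 2 of E12.5 PGC, and used the 140037 features with a level in all 4, out of 176831 with a level in any library. The labels give C57BL6 as the strain of both groups. The ESC were female lines, derived from blastocysts of mice with a GFP reporter and kept on fibroblast feeders in serum with LIF. The study moved its ESC to another medium before germ cell induction, and the medium of the sequenced ESC is not stated. The E12.5 PGC were germ cells taken from gonads of E12.5 embryos by sorting on surface markers, and the study describes the embryos as female. Both groups were assayed in the same way, by reduced representation bisulfite sequencing, which cuts genomic DNA at CCGG sites and reads methylated cytosines in CpG-rich fragments. A level is the percentage of cytosines read as methylated in a feature, and no read numbers were given, so the depth behind each level is unknown. Nothing in the files says whether the 2 libraries of a group share a culture or a pool of embryos, so the spread between them may be partly technical.

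Primordial germ cells migrate to the gonad and lose most of their DNA methylation, imprints included, before sex-specific gametogenesis begins. Promoters of germline genes with CpG-rich starts are among the sites that gain methylation at implantation and lose it late in germ cells. Imprinted genes carry methylation on 1 parental allele, set in the oocyte for most and in sperm for a few. Mouse ESC in serum are usually held to be moderately to highly methylated, and female lines less so.

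Some measurements go against the labels of the E12.5 PGC libraries and are given before the results. Levels were present at 36 and 35 features of the Y chromosome in the libraries labelled E12.5 PGC, against 4 and 6 in ESC, and 29 Y features had a level in both E12.5 PGC libraries and in neither ESC library. These include Kdm5d, Uty, Ddx3y and Usp9y. Y features also had a level in the germ cell-like cells derived in culture, 34 and 32 in ESC-PGCLC and 29 and 31 in pESC-PGCLC against 5 and 6 in pESC. Female cells have no Y chromosome, and the source of these reads was not tested. Promoters of genes that define germ cells were also not at low levels in the libraries labelled E12.5 PGC. Ddx4, an RNA helicase of germ granules, stood at 46.2% and 46.4%, Mael at 43.0% and 42.1%, Dazl at 46.0% and 43.4%, Sycp1 at 43.1% and 48.3%, and Tex101 at 69.98% and 61.2%. Sycp3 differed between the libraries, at 47.4% and 27.3%. Promoters of pluripotency genes were split, with Dppa5a at 50.4% and 51.7%, Pou5f1 at 15.7% and 13.4%, and Tdgf1 at 2.92% and 3.15%. In bulk DNA a mixture of methylated and unmethylated cells and an intermediate level in every cell cannot be told apart. Promoters of fibroblast feeder markers gave 0 calls of 10 and those of gonadal somatic markers 1 of 16, Tcf21, which was lower in E12.5 PGC. Over all promoters, 6.75% were called higher and 1.27% lower.

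The sequences below were chosen as examples from features that differed, 3 that were higher in E12.5 PGC and 2 that were higher in ESC. Coordinates are GRCm38 and 1-based, each sequence runs 5′ to 3′, and capitals mark every CG, the dinucleotide that carries the methylation. The islands are shown on the plus strand. The Zmynd8 island, chr2:165807681-165807917, lies in coding sequence of a gene for a chromatin reader and holds 25 CG and 3 CCGG sites. The island higher in ESC, chr13:31615283-31615489, lies in an exon of 1700018A04Rik and holds 21 CG.
Zmynd8 island: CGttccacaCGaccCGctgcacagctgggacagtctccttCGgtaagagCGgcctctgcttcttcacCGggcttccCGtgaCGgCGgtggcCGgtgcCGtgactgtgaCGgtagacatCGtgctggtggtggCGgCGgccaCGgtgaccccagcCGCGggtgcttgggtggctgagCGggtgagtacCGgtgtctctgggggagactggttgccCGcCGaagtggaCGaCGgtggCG
1700018A04Rik island: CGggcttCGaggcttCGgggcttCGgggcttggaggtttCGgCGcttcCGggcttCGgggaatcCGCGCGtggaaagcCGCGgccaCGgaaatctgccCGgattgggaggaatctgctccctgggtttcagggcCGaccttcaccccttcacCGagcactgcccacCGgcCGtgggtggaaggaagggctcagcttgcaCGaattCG
The next 3 are the 250 bases before the RefSeq start, on the strand of the gene and in the GRCm38.p6 build. Rlim (chrX:103981286-103981535, minus strand) encodes a ubiquitin ligase that acts on X inactivation, and Zfp42 (chr8:43307010-43307259, minus strand) encodes the pluripotency marker REX1. Both promoters were higher in E12.5 PGC. Srp9 (chr1:182124487-182124736, plus strand) encodes a protein of the signal recognition particle, and its promoter was higher in ESC.
Rlim: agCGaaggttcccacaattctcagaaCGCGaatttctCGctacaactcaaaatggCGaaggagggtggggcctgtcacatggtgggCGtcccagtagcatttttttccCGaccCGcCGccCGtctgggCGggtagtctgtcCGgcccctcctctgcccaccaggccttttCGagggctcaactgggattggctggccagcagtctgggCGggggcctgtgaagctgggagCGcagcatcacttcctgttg
Zfp42: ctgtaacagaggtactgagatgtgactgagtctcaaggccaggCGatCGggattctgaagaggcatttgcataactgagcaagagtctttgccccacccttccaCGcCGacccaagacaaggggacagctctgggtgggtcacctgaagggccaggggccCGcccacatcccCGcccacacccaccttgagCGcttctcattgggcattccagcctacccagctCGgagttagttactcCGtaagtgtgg
Srp9: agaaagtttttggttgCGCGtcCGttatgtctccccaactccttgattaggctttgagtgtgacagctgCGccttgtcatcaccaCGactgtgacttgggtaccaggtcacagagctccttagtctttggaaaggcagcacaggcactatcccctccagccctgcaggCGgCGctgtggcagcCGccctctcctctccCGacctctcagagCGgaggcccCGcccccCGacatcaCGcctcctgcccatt
These windows hold 15, 9 and 13 CG, against a median of 6 over 32851 promoter windows of this length. A CCGG site is present in 47.1% of all windows and in the Rlim window, and is absent from the Zfp42 and Srp9 windows. The study does not state how far its promoters reach, so the cytosines measured may lie outside these bases.

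The 2 groups were compared because their overall levels were known to be nearly equal, so that likeness is not a result. The distribution of levels differed. The mean over all features was 26.5% and 21.8% in ESC and 24.7% and 25.1% in E12.5 PGC. The E12.5 PGC values lay between those of ESC, and the difference of 0.786 points was under the spread of ESC (SD 3.35, n = 2), with an exact permutation p of 1. With 2 libraries against 2, the smallest two-sided p that this test allows is 0.333. The median over the same features was 14.9% and 12.4% in ESC and 21.3% and 21.9% in E12.5 PGC, with no overlap. Features at 30% to under 50% made up 16.5% and 22.9% of all in ESC and 28.5% and 28.4% in E12.5 PGC. Features under 10% made up 46.4% and 47.4% in ESC and 42.5% and 42.2% in E12.5 PGC. E12.5 PGC thus had more features at intermediate levels and fewer at low ones.

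Replicates were closer to each other than to the other group. The squared correlation across features was 0.915 between the ESC libraries and 0.939 between the E12.5 PGC libraries, and it ranged from 0.706 to 0.754 between groups. The ESC libraries were less alike in level. In ESC, 25.3% of features differed by 10 points or more between the libraries, against 5.41% in E12.5 PGC. This spread depended on the level. Among features of 50% and over, the median difference between replicates was 11.3 points in ESC and 3.12 points in E12.5 PGC, and among features under 10% it was 0.772 and 0.467 points.

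CpG-dense classes had higher means in E12.5 PGC, and repeats did not separate. CpG islands had mean levels of 3.81% and 3.46% in ESC and 5.25% and 5.47% in E12.5 PGC, which did not overlap. 5' UTRs stood at 4.72% and 4.57% against 5.41% and 5.57%, also without overlap. Island shores, the flanks of islands, stood at 13.9% and 10.8% against 14.7% and 14.9%. In all 3 classes the exact permutation p was 0.333, as low as it can go here. With each library centred on its median the sign of these differences turns negative, as it does at promoters, exons, introns and 3' UTRs. Promoters stood at 16.0% and 13.1% against 15.9% and 16.2%, and overlapped. Repeats stood at 50.4% and 41.9% against 44.7% and 45.2%, so that the E12.5 PGC libraries lay between the ESC libraries. Exons, introns and 3' UTRs lay between them as well.

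**Figure D1:**
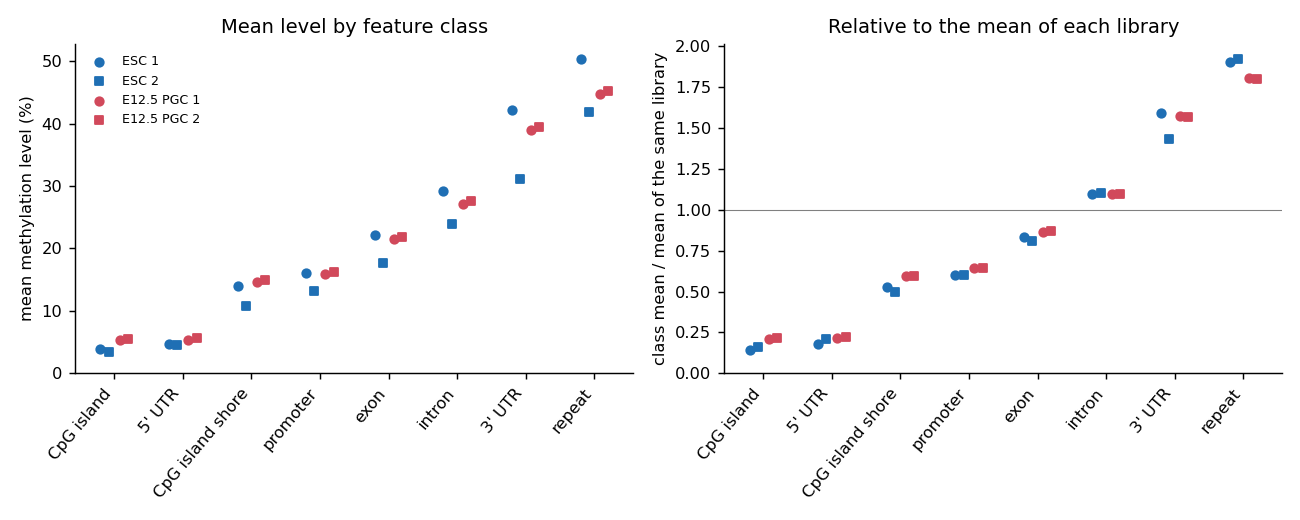
Mean methylation level (%) of 8 feature classes, 1 point for each library (left), and the same mean divided by the mean of that library over all features (right). CpG islands run from 3.46% to 5.47% and repeats from 41.9% to 50.4%, and relative to the library mean the groups separate in opposite directions at islands and repeats.

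Dividing each class by the mean of its own library took out the difference in overall level between the ESC libraries. This ratio was chosen after seeing the data. CpG islands were at 0.144 and 0.159 of the library mean in ESC and at 0.212 and 0.218 in E12.5 PGC. Repeats were at 1.90 and 1.93 in ESC and at 1.81 and 1.80 in E12.5 PGC. Relative to the library mean, repeats therefore stood higher in ESC and islands higher in E12.5 PGC. So did shores (0.525 and 0.498 against 0.593 and 0.595) and promoters (0.604 and 0.604 against 0.641 and 0.645). The ratio is of means over features and is not a share of the methylated cytosines. 3' UTRs overlapped on this scale.

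Single features differed in both directions. limma on log odds of the levels called 9153 features higher in E12.5 PGC, 6.54% of those tested, and 2015 lower, 1.44%, at an adjusted p under 0.05 with a difference of at least 10 points. The share of calls that were higher, 82.0%, depended on the processing. It was 54.1% without ESC replicate 2, 89.3% without ESC replicate 1, 59.3% in a fit of all 12 libraries and 15.2% with each library centred on its median, which moves every difference down by 7.96 points (0.77 in log2 odds). Counting instead the features whose nearest libraries were at least 10 points apart, with no test, gave 12265 higher (8.76%) and 5870 lower (4.19%). At repeats this count was 3874 higher and 3386 lower.

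Changes between 10% or less and 30% or more went mostly one way. The limit of 30% takes in the intermediate levels that were more common in E12.5 PGC. There were 1988 features at or under 10% in both ESC libraries and at or over 30% in both E12.5 PGC libraries, and 187 with the converse pattern. The first set held 646 of 38443 repeats, 307 of 15152 shores, 259 of 19070 promoters and 136 of 13850 islands. Over all features it was 1988 of 140037. The second set held 47 repeats, 33 shores, 35 promoters and 2 islands of the same classes, against 187 over all features. Most features were alike, with 54240 at or under 10% and 44604 at or over 30% in all 4 libraries.

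**Figure D2:**
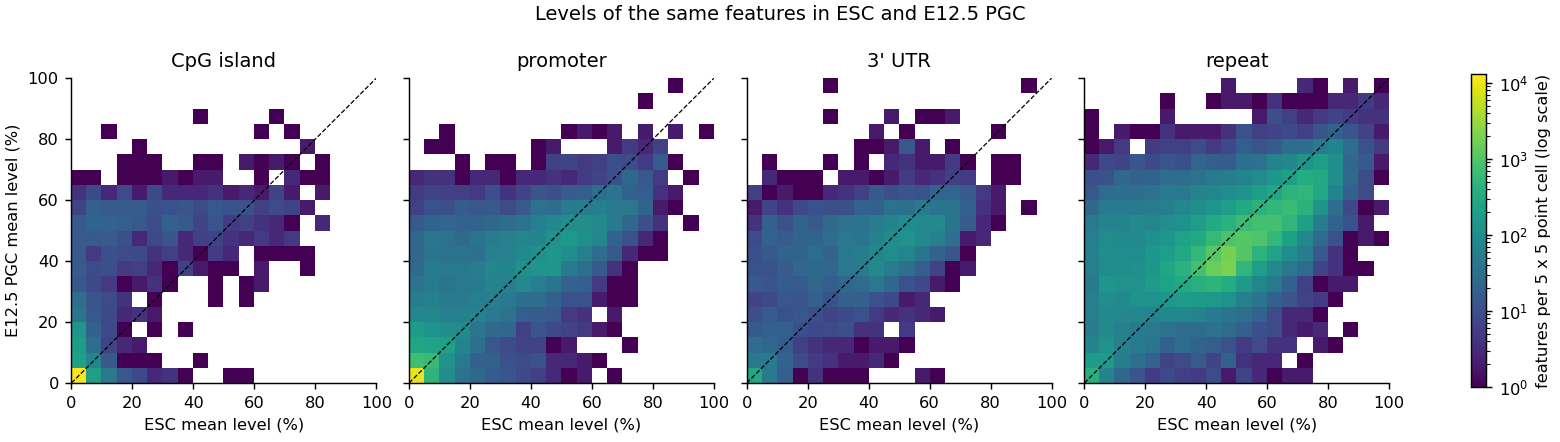
Number of features (colour, log scale) by mean ESC level (%, horizontal axis) and mean E12.5 PGC level (%, vertical axis), in cells of 5 points, for 4 feature classes. The dashed line marks equal levels. Islands spread upward from the lower left corner, with 676 called higher in E12.5 PGC and 38 lower, while repeats form a band along the line.

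CpG islands differed far more on the X chromosome, by 12.9 points, than on autosomes, by 1.43 points. Over all islands the difference was 1.72 points, and 438 of the 676 islands called higher were autosomal. Genes on 1 of the X chromosomes of female cells are silenced and their islands become methylated. The 352 X-linked islands had mean levels of 4.36% and 3.70% in ESC and 16.6% and 17.2% in E12.5 PGC. Of them 237 were called higher in E12.5 PGC and 0 lower, against 4.88% higher and 0.274% lower over all islands. In all, 335 were higher in both E12.5 PGC libraries than in both ESC libraries, and 3 were lower in both. The median X-linked island stood at 14.6% in E12.5 PGC, with quartiles of 11.7% and 17.99%, and at 1.87% in ESC. Autosomal islands stood at 3.78% and 3.45% in ESC and 4.94% and 5.15% in E12.5 PGC, with 438 of 13492 called higher and 38 lower. The X minus autosome difference was 0.58 and 0.25 points in ESC and 11.6 and 12.1 points in E12.5 PGC, with an exact permutation p of 0.333. Y-chromosome features were present in the libraries with the higher X levels, and the part of the sex of the cells in this was not tested.

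**Figure D3:**
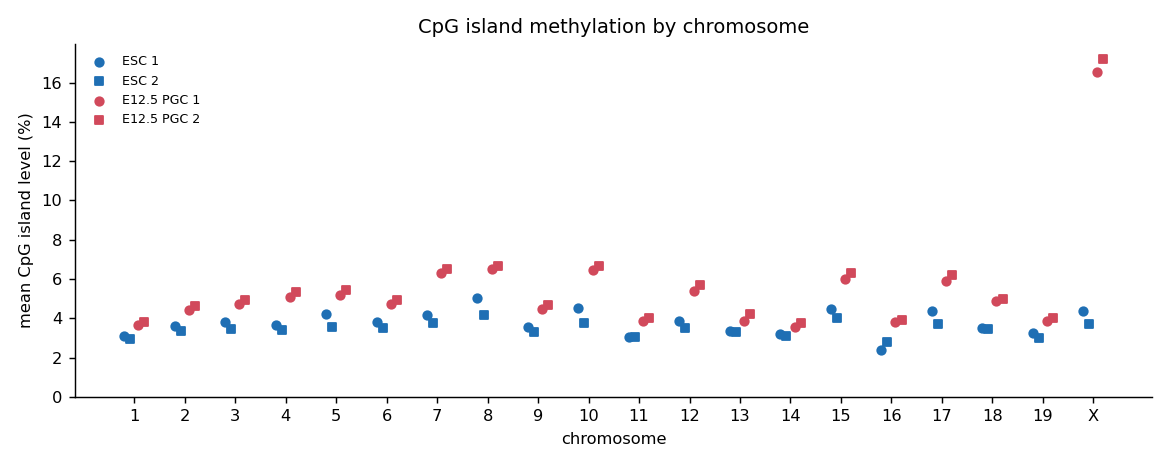
Mean CpG island level (%) on each chromosome, 1 point for each library. The X chromosome stands at 16.6% and 17.2% in E12.5 PGC, against 6.68% or less on every autosome.

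X-linked 5' UTRs, shores and exons moved in the same direction. 5' UTRs on the X chromosome stood at 6.19% and 5.54% in ESC and 18.1% and 18.8% in E12.5 PGC. Of 302, 186 were called higher, against 3.36% of all 5' UTRs and 184 of 10729 on autosomes. Among promoters of genes tied to X inactivation, 4 of 15 were called higher. All 4 lie on the X chromosome, where 222 of 536 promoters, or 41.4%, were called higher, against 6.75% of all promoters. The mean difference of this list turns negative with centring. Rlim rose from 0.733% and 1.64% to 32.8% and 34.5%. Zfx, Huwe1 and Pdha1 rose to between 13.5% and 20.1%, from 3.64% or less. Rhox9, a homeobox gene of the germline, rose from 15.1% and 14.5% to 54.8% and 52.4%. X-linked promoters averaged 26.5% and 27.1% in E12.5 PGC, and the 14 measured X-linked germline promoters, Rhox9 among them, 44.7% and 45.3%.

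Autosomal islands called higher lay mostly inside genes. Of 2280 autosomal islands inside a gene with no transcript start, 300 were called higher, or 13.2%, against 110 of 10569 islands over a transcript start, or 1.04%. Called islands were short, with a median of 388 bases against 622 for islands not called, and held a median of 3 CCGG sites against 8. A short island rests on fewer cut sites, and the part of this in the calls was not tested. The largest difference was at chr6:90905568-90905941, which spans the start of the pseudogene Ppp1r2-ps2 within Iqsec1, at 16.8% and 8.24% in ESC and 81.6% and 78.8% in E12.5 PGC. The Zmynd8 island rose from 2.03% and 3.34% to 69.4% and 70.2%. An island in Bcl11b, a zinc finger gene (chr12:107915285-107917294), rose from 2.66% and 3.01% to 63.5% and 64.2%. One in Zfhx3 (chr8:108792264-108792751) stood at 7.91% and 4.09% against 78.4% and 53.1%, a call that ends with an offset of 0.1 and without either ESC replicate.

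Islands lower in E12.5 PGC were few, and the 5 largest differences are given. The island in Lhx9, a homeobox gene of the gonad and brain (chr1:138841499-138842069), fell from 69.9% and 33.5% to 1.90% and 2.66%. The 1700018A04Rik island fell from 50.6% and 26.4% to 2.72% and 2.03%. The one at chr5:119796511-119796843, between genes, fell from 68.6% and 42.0% to 3.59% and 3.31%. The ESC replicates were far apart at these 3 islands, but neither came near the E12.5 PGC libraries. With an offset of 0.1 these 3 calls end, as does that at the Kif13a island, which also ends without ESC replicate 1. Islands at Tpt1-ps3 and Kif13a remained at intermediate levels in E12.5 PGC, between 37.0% and 47.5%.

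Promoters of several pluripotency genes were methylated in E12.5 PGC and not in ESC. Of 24 measured promoters of the list, 7 were called higher and 0 lower, against 6.75% and 1.27% of all promoters. Dppa5a, an RNA-binding protein of pluripotent cells, rose from 2.65% and 2.76% to 50.4% and 51.7%, a change in log2 odds of 4.79 (SE 0.26, limma adjusted p = 0.0045). Tcl1, a kinase co-activator, rose from 0.647% and 3.78% to 52.6% and 50.7%. Dppa2, which guards developmental promoters from methylation, rose from 3.29% and 4.05% to 47.1% and 48.1%. The groups were far apart at each of these 3. Dppa3, which protects the maternal genome in the zygote, rose to 32.4% and 35.0%, and Zfp42 rose to 30.7% and 30.9%. Pou5f1, the core pluripotency factor, rose from 2.67% and 2.93% to 15.7% and 13.4%. The other 17 were not called. Among them Sox2, Klf4, Klf2, Tet1 and Tdgf1 were under 4% in all 4 libraries.

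Some germline promoters were also higher in E12.5 PGC. Of 16 germ granule and piRNA promoters 5 were called higher and 0 lower, and of 20 meiotic promoters 3 and 0, against 6.75% and 1.27% of all promoters. The median difference was 11.3 points in the first list and 1.25 points in the second. The calls at Mael, Pnldc1, Hormad1 and Sycp2 end with an offset of 0.1, and that at Mael also without either E12.5 PGC replicate. The mean difference of the meiotic list, 7.78 points, turns negative with each library centred on its median, and that of the germ granule list, 15.5 points, does not. Ddx4 rose from 13.01% and 9.91% to 46.2% and 46.4% (limma adjusted p = 0.0067). Rnf17, a tudor protein of germ granules, rose from 1.61% and 3.45% to 40.9% and 41.3%. Piwil2, which binds piRNAs, rose to 44.2% and 45.0%, and Mael and Pnldc1 rose as well. Msh4, a meiotic recombination factor, rose from 2.71% and 2.21% to 33.9% and 34.2%. Hormad1, of the meiotic chromosome axis, rose from 34.7% and 15.8% to 64.0% and 65.0%, and Sycp2 from 17.6% and 8.24% to 45.3% and 48.0%. Dazl and Asz1 were not called, and the promoters of Brdt, Stk31, Nanog, Prdm14, Xist, Peg3 and Rhox5 lacked a level in at least 1 of the 4 libraries. Dazl stood at 39.7% and 12.03% in ESC, so that 1 ESC library lay near E12.5 PGC and the other far below. Of 13 PGC identity promoters 4 were called higher and 0 lower, Rhox9, Ddx4, Dppa3 and Elf4, against 6.75% and 1.27% of all promoters. Rhox9 and Elf4 lie on the X chromosome, where 41.4% of promoters were called higher. Ddx4 is also in the germ granule list and Dppa3 in the pluripotency list, so their calls are counted more than once. The call at Elf4 ends with an offset of 0.1 and without ESC replicate 1.

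**Figure D4:**
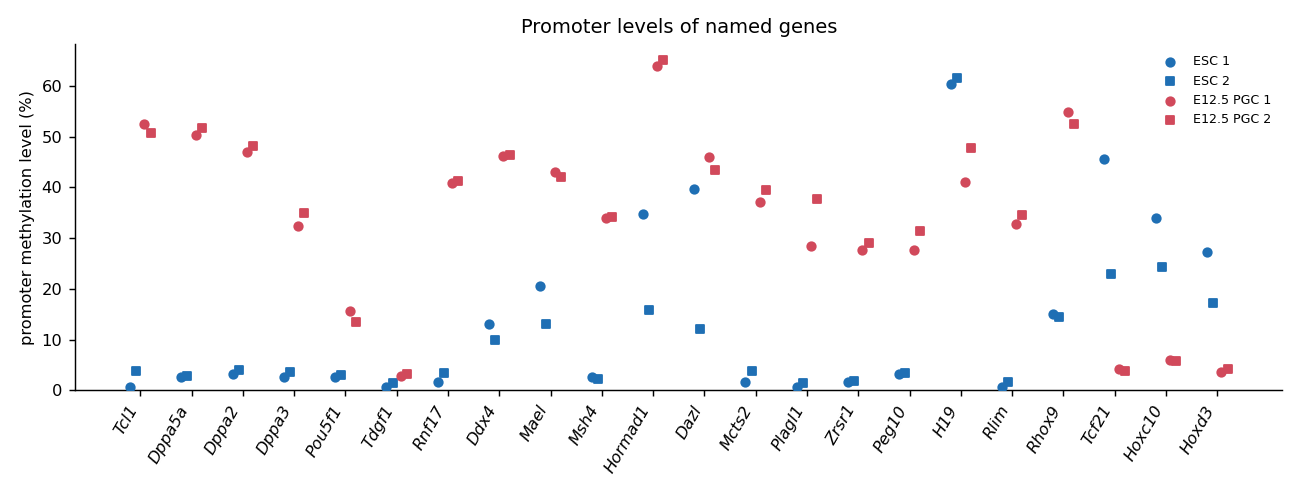
Promoter methylation level (%) of 22 named genes, 1 point for each library. Dppa5a stands under 3% in ESC and at 50.4% and 51.7% in E12.5 PGC, while Tcf21, Hoxc10 and Hoxd3 show the opposite order.

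Oocyte-set imprints were lower in ESC than in E12.5 PGC. Of 16 promoters of maternally methylated imprinted genes, 8 were called higher in E12.5 PGC and 0 lower, against 6.75% and 1.27% of all promoters, and the mean of the list was 13.5% and 12.99% in ESC and 30.6% and 31.9% in E12.5 PGC. An intact imprint would be methylated on 1 allele only. Mcts2 rose from 1.66% and 3.76% to 37.2% and 39.5%. Plagl1, a growth regulator, rose from 0.614% and 1.49% to 28.5% and 37.7%, and Zrsr1 from 1.65% and 1.91% to 27.7% and 29.0%. Mest rose from 6.73% and 6.76% to 37.2% and 28.8%. Peg10 and Sgce, which share 1 promoter region, gave near-equal values, with Peg10 at 3.25% and 3.52% against 27.7% and 31.5%. Gnas and Nespas, also neighbours, rose to between 26.1% and 34.1%. Not all imprints were low in ESC. Snrpn stood at 34.5% and 44.8% in ESC and 41.7% and 48.1% in E12.5 PGC, and Peg13 at 38.2% and 39.6% against 42.5% and 39.0%. Of 6 paternally methylated genes 0 were called. H19 stood at 60.3% and 61.6% in ESC and 41.0% and 47.8% in E12.5 PGC (limma adjusted p = 0.119), without overlap.

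A few promoters of the methylation machinery were higher in E12.5 PGC. Mbd3, a subunit of the NuRD complex, rose from 1.79% and 2.45% to 68.2% and 65.2%, and Hells, a chromatin remodeller needed for methylation, from 4.92% and 6.57% to 42.3% and 42.6%. Of 19 promoters of this list 3 were called higher and 0 lower, the third being Dppa3, against 6.75% and 1.27% of all promoters. The other 16 were not called, the median difference of the list was 0.285 points, and its mean difference turns negative with centring. Over all promoters, the largest rises were at Ago1, Ppp1r2-ps2, Mir143, Spsb3 and Mbd3, and Ago1 rose from 10.3% and 5.59% to 76.8% and 80.0%. The Ppp1r2-ps2 promoter has the same values as the chr6 island and is the same site.

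Promoters lower in E12.5 PGC included developmental regulators. Of 34 Hox promoters 0 were called higher and 5 lower, against 1.27% of all promoters, and these were Hoxc10, Hoxd3, Hoxa6, Hoxc5 and Hoxb2. Hoxc10 fell from 33.9% and 24.3% to 5.95% and 5.71%, and Hoxd3 from 27.3% and 17.3% to 3.59% and 4.21%. The calls at Hoxd3 and Hoxa6 end with an offset of 0.1, and those at Hoxa6 and Hoxc5 without either E12.5 PGC replicate. All 34 were under 10% in E12.5 PGC, against 27 in ESC. Tcf21, a transcription factor of gonadal and other mesenchyme, fell from 45.6% and 23.0% to 4.14% and 3.81%, a call that ends with an offset of 0.1. The largest falls were at Selenoi, Srp9, Samd11, n-R5s61 and Phf12. The call at Phf12 ends in the fit of all 12 libraries. Its replicates lay far apart in other groups, at 61.7% and 7.81% in pESC and 91.9% and 7.81% in E9.5 PGC. Srp9 fell from 58.6% and 52.5% to 0.996% and 0.981%. The largest falls at 3' UTRs were at Emx2, Ntrk2, Pou4f3, Wnt8b and Naaa, with Ntrk2 going from 70.8% and 49.3% to 4.65% and 5.02%. Naaa went from 47.3% and 32.4% to 2.40% and 1.04%. The calls at Emx2 and Wnt8b end with an offset of 0.1, and that at Emx2 also without either ESC replicate.

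The list of Zfp zinc finger genes was close to the background, with 19 of 268 promoters higher (7.09%) and 4 lower (1.49%). Zfp383 and Zfp27, neighbours on chromosome 7, were the highest, at 54.2% and 55.0% and at 53.6% and 54.7% in E12.5 PGC, from between 6.62% and 10.05% in ESC. Olfactory receptors gave 1 higher and 1 lower of 39, and vomeronasal receptors 0 of 11. Of 6 clustered protocadherin promoters 1 was called higher, Pcdhga4, and of 18 formative epiblast promoters 1, X-linked Sox3. Of 14 X-linked germline promoters 2 were called higher, Rhox9 and Taf7l, against 41.4% of all X-linked promoters. The calls at Taf7l and Sox3 end with a replicate block and without either E12.5 PGC replicate.

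At repeats some families differed between the groups, in both directions, and most families overlapped. A repeat feature pools the copies of an element that cover the same stretch of its consensus, and has no genome position. Over all 38443 repeats 6.39% were called higher and 1.8% lower. IAP internal sequences, of a young endogenous retrovirus that keeps methylation in germ cells, stood at 72.7% and 67.6% in ESC and 62.5% and 62.2% in E12.5 PGC, without overlap, and older L1Md elements at 55.5% and 48.7% against 46.9% and 47.3%. B1 SINE elements, short elements copied by the L1 machinery, had the higher mean in E12.5 PGC, at 39.8% and 31.5% against 40.3% and 40.9%, an order that turns with centring. Relative to the repeat mean of each library, B1 stood at 0.79 and 0.75 in ESC and 0.90 and 0.90 in E12.5 PGC, and IAP internal sequences at 1.44 and 1.61 against 1.40 and 1.38. The IAPEz entries, 280 in number, stood at 76.5% and 72.1% in ESC and 65.7% and 65.8% in E12.5 PGC, with 0 called higher and 12 lower. The 12 MERVL-int entries, of the retrovirus active in 2-cell embryos, stood at 49.8% and 42.4% against 43.0% and 43.6%, and the 84 ETnERV entries at 63.0% and 56.5% against 53.8% and 55.5%. MERVL-int overlapped between the groups and ETnERV did not.

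One group of young L1 elements went against the rest, and was singled out after its values were seen. L1MdTf_I entries that start in the first 1000 bases of the consensus stood at 30.7% and 23.3% in ESC and at 57.9% and 58.6% in E12.5 PGC, over 109 entries. L1MdTf_II entries of the same kind stood at 32.5% and 24.9% against 58.5% and 59.5%, over 156 entries. The first bases of an L1 consensus hold the promoter of the element. Entries were grouped by their start only and can run past these bases, so their levels are not those of the promoter alone. L1MdTf_I entries that start later stood at 59.6% and 47.6% in ESC and 48.8% and 45.6% in E12.5 PGC. L1MdA_I entries that start in the first 1000 bases stood at 75.9% and 67.7% against 66.6% and 67.5%. A higher level in entries with an early start was thus seen in L1MdTf_I and L1MdTf_II. It was also seen, to a lesser degree, in L1MdGf_I (59.2% and 42.0% against 65.3% and 65.5%), and not in L1MdA_I. It was not seen in L1MdTf_III either, the largest group of that family with 532 such entries, at 63.2% and 45.0% in ESC and 53.7% and 54.3% in E12.5 PGC, which overlapped. Of the 109 L1MdTf_I entries, 91 were higher in both E12.5 PGC libraries than in both ESC libraries and 11 were lower in both. Entries of a subfamily share sequence and are not independent.

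**Figure D5:**
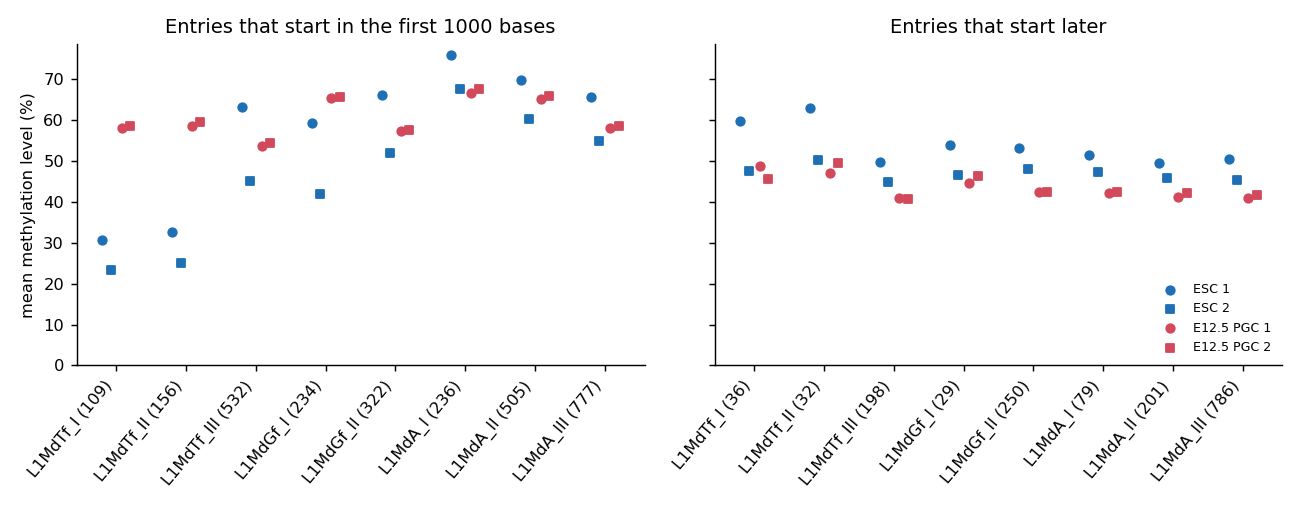
Mean methylation level (%) of young L1 subfamilies, 1 point for each library, for entries that start in the first 1000 bases of the consensus (left) and later (right), with the number of entries in parentheses. L1MdTf_I and L1MdTf_II at the left are the subfamilies where both ESC libraries lie under 33% and both E12.5 PGC libraries over 57%.

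Single repeat entries reached larger differences. L1MdF_III over consensus bases 548 to 3083 stood at 0% in both ESC libraries and at 86.4% and 87.5% in E12.5 PGC. RSINE1 over bases 45 to 148 stood at 76.7% and 72.6% in ESC and at 0% in both E12.5 PGC libraries. The number of reads behind such entries is unknown.

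The called features were then read in pESC, ESC of parthenogenetic origin, and in E9.5 PGC, germ cells of embryonic day 9.5, which share no library with the comparison. Features called higher in E12.5 PGC had medians of 6.82% and 8.18% in pESC and of 60.4% and 59.9% in E9.5 PGC. Their median in E12.5 PGC was 37.1% and 37.5%. E9.5 PGC were above pESC at 99.9% of these features, against 84.7% of all features tested. Features called lower had medians of 44.0% and 40.0% in pESC and of 29.3% and 26.9% in E9.5 PGC, and E9.5 PGC were above pESC at 29.7% of them. E9.5 PGC were at least 10 points below pESC at 48.9% of the features called lower, against 1.30% of all, and at least 10 points above at 11.3%. Maternal imprints were an exception to the likeness of pESC and ESC. Peg10 stood at 38.9% and 34.6% in pESC, and Mest at 47.6% and 44.7%, while Mcts2 stood at 6.13% and 3.76%.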

How the data were processed

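Levels of RRBS features were analysed for 2 ESC and 2 E12.5 PGC libraries. Per the labels, the authors aligned reads to mm10 with Bismark 0.16.3 and Bowtie2, and the deposited values are methylation levels as a fraction of cytosines, corrected by the authors for non-conversion and averaged by feature. The minimum coverage and the extent of promoters are not given in the sources used here. Levels were taken times 100 and features with a level in all 4 libraries were kept. Log2 odds, with an offset of 0.01, were fitted with limma 3.58.1 in R 4.3.3, and p-values were adjusted by Benjamini-Hochberg over all 140037 features. A call needed an adjusted p under 0.05 and a mean difference of at least 10 points. Group means of classes and lists were compared by two-sided exact permutation tests. The fit was tested on simulated data with 20000 features. With 200 features shifted by 2 in log2 odds, 148 were recovered and 18 unshifted features were called. With a shift of 4, 200 were recovered and 20 unshifted features were called, and with no shift there was 1 call. Libraries were simulated independently, with the same spread in both groups, and shifts were placed only in features of intermediate mean. The ESC libraries differed more from each other than the E12.5 PGC libraries did. These counts therefore do not give the error rate of the real comparison. Named features were the 5 largest called differences in each direction for promoters, islands, 3' UTRs and repeats with nearest libraries at least 10 points apart, up to 4 called promoters of each of 17 lists, and a set of fixed names. Gm, Rik and accession names were left out of the largest differences. Members and lists were chosen with earlier results of these data known. Of 30073 gene identifiers, 30041 were in GENCODE M21. Island starts in the files count from 0 and are printed from 1. A few features that the rule selects are not reported here.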

Additional observations from a re-analysis of the deposited data

Results flagged for a closer look

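Features of the Y chromosome had a level at 36 sites in E12.5 PGC replicate 1 and at 35 in replicate 2, although the study describes these cells as female. The ESC libraries had a level at 4 and 6 of the 43 Y features seen in any library. E9.5 PGC had 38 and 35, pESC 5 and 6, ESC-PGCLC 34 and 32, and pESC-PGCLC 29 and 31. The source of these reads was not tested.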

How the results depend on the processing

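The number of calls, 11168, was 39735 with each library centred on its median, 22897 in a fit of all 12 libraries, 7350 for autosomal features only, which leaves out repeats, and 18135 by nearest libraries at least 10 points apart, a setting added after seeing the data. Leaving out 1 library gave 9951 to 17990. The share higher in E12.5 PGC was 15.2% with centring, 59.3% in the fit of 12 libraries and 67.6% by nearest libraries, and 54.1% to 89.3% without 1 library, the lowest without ESC replicate 2. Under centring the mean difference turned negative in every class other than repeats, where it already was negative, and for the meiotic, DNA methylation machinery, X inactivation, X-linked germline, feeder and Zfp lists, and B1 elements. It kept its sign for X-linked islands and the maternally methylated, germ granule, PGC and pluripotency lists. The sign was also kept for L1MdTf_I entries that start in the first 1000 bases. Centring takes the same 7.96 points from every difference, so a positive difference under that size turns and a larger one does not. For the other settings the cause was not tested.

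Leaving out 1 library, the difference ranged from -1.58 to 3.16 points over all features, -0.45 to 4.00 at exons, -1.82 to 3.37 at introns, -3.00 to 7.98 at 3' UTRs and -5.47 to 3.03 at repeats. It ranged from 1.55 to 1.90 at islands, 0.76 to 0.93 at 5' UTRs, 0.88 to 3.97 at shores, 0.01 to 2.88 at promoters, 11.2 to 11.7 for X minus autosome islands, 17.4 to 18.7 at maternally methylated promoters, -2.26 to -0.92 at paternally methylated ones, 13.2 to 17.7 at germ granule, 4.50 to 11.1 at meiotic, 9.75 to 10.1 at pluripotency and 11.2 to 13.7 at PGC promoters. Reversals among single promoters were Vmn1r84, which ranged from -14.2 to 0.087 and turned without E12.5 PGC replicate 2, Sycp1 at -3.08 without ESC replicate 2, and Tex101, which ranged from -9.89 to 8.11 and turned without ESC replicate 1 and, at 3.52, without E12.5 PGC replicate 2. An offset of 0.1 ended 15 of the calls of 94 named features, at the promoters of Mael, Pnldc1, Hormad1, Sycp2, Elf4, Tcf21, Hoxd3 and Hoxa6, the 3' UTRs of Emx2 and Wnt8b, and the islands in Zfhx3, Lhx9, 1700018A04Rik and Kif13a and at chr5:119796511-119796843. Calls at Mael, Hoxa6, Hoxc5, Sox3 and Taf7l ended without either E12.5 PGC replicate, those at the 3' UTRs of Emx2 and Klhl26, the Zfhx3 island, ID_B1 and RLTR44-int without either ESC replicate, and those at Elf4 and the Kif13a island without ESC replicate 1. Dazl and S100a4 were called without ESC replicate 1 and Asz1 without E12.5 PGC replicate 2. Of the 85 named features in the fit of all 12 libraries, the call at Phf12 ended and 1 call was gained. Libraries share only a replicate number across groups. Their deviations correlated at -0.023, and a replicate block gave 13341 calls with 79.0% higher. Among the named features the block ended the calls at Sox3 and Taf7l and added 1 call. It left each group mean difference as it was.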
